A study of Mus musculus with 6 samples.

Results

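The genes described here are 10 members of the Toll-like receptor system of the mouse, taken from 32285 features in a table of read counts. They were matched by symbol to a given list. The list holds the endosomal receptor genes Tlr7, Tlr9 and Tlr11, the surface receptor genes Tlr1, Tlr2, Tlr4 and Tlr6, the chaperone gene Unc93b1, and the adaptor genes Myd88 and Ticam1. RNA came from type 1 conventional dendritic cells (cDC1s) sorted from tissue labelled mLN of C57BL/6 mice. All mice had been given 50 µg of house dust mite extract (HDM) through the nose, and cells were sorted 24 h later. The wild-type group (WT) and the group labelled as a knockout of the trafficking gene Vps33b, with the genotype Vps33BdeltaDC (KO), had 3 libraries each. The sources used here do not give the promoter that drove the deletion, the exons removed, the age of the mice or any pooling of animals. No group without HDM was analysed here.

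Toll-like receptors recognise microbial molecules through a leucine-rich ectodomain and signal through a cytoplasmic TIR domain. Some act at the cell surface on lipids and lipoproteins, whereas others act in endosomes and lysosomes, mainly on nucleic acids, and these need UNC93B1 to leave the endoplasmic reticulum. MyD88 carries the signal of most of them to NF-kB, and TRIF, the product of Ticam1, carries that of TLR3 and of internalised TLR4. In the mouse, cDC1s are known for TLR3, for the profilin receptors TLR11 and TLR12, and for the lack of TLR7. VPS33B is a Sec1/Munc18-family protein of endosomal and lysosomal membrane fusion, so the comparison bears on the compartment in which endosomal receptors work.

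Libraries held between 11755944 and 18450678 counts. Levels are given in CPM, that is, counts relative to library size after TMM scaling, and are listed in replicate order. All 12 markers of cDC1s had counts in every library, led by Irf8, the cDC1 transcription factor, at 1244 to 1741 CPM. Vps33b was at 16.2, 19.1 and 13.8 CPM in WT and 4.997, 7.01 and 8.29 CPM in KO, so the groups did not overlap, with a log2 fold change of -1.28 ± 0.27 and an edgeR adjusted p of 0.834 (exact two-sided permutation p = 0.1, the smallest that 3 against 3 allows). Summed markers of monocytes and macrophages stood apart in KO replicate 3, at 805 CPM, and in WT replicate 1, at 466 CPM, against 216 to 275 CPM in the other libraries. The labels do not say that libraries came from separate animals, so the spread behind each p-value is that between these libraries and may be technical. In RNA from sorted populations, fewer cells of a type and less RNA per cell cannot be told apart.

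The surface receptor genes Tlr1 and Tlr6 are neighbours on chromosome 5 with a stretch of identical coding sequence, which is shown because it bears on how far the counts of the pair can be separated. In the GENCODE M21 models of mm10, Tlr1 lies on the minus strand from 64924679 to 64933563 and Tlr6 on the same strand from 64952031 to 64960097. Their coding sequences, of 2385 and 2418 bases, share an unbroken identical run of 229 bases. The run is shown with 12 bases of each gene on both sides, in the sense of the transcript, at chr5:64925525-64925777 for Tlr1 and chr5:64953816-64954068 for Tlr6. Capitals mark the identical run.
Tlr1: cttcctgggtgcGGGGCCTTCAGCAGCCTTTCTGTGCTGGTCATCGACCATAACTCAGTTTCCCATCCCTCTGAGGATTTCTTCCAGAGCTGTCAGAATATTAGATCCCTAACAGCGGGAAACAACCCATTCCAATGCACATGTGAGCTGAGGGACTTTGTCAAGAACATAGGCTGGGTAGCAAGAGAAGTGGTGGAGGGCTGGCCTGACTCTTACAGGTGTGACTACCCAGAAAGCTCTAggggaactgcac
Tlr6: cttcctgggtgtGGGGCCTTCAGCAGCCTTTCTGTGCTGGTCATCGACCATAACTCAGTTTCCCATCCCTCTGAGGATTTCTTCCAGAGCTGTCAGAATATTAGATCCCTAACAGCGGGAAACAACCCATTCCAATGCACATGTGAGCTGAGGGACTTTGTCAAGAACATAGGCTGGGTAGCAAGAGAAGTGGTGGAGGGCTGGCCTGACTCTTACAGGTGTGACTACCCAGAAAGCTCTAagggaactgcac
Of all windows of 150 bases in the Tlr1 coding sequence, the length of 1 read, 6.2% also occur in Tlr6, and of windows of 50 bases 19.4% do. A read pair from such a stretch alone cannot be given to one of the genes, and the sources used here do not give how the counting treated it. No other pair among the 10 receptor genes compared shared a window of 50 bases.

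The level of these genes differed far more between genes than between genotypes. Levels between genes are compared as CPM per kilobase of exon. Unc93b1 led, at 64.4 to 92.2 CPM per kilobase over the 6 libraries, above 95.1% of the 12568 genes tested. Ticam1 followed at 23.5 to 30.9 CPM per kilobase. The chaperone and this adaptor were thus above every receptor in all libraries. Tlr13, a receptor for bacterial ribosomal RNA that is no member of the list, had the highest receptor mean, at 14.2 CPM per kilobase. Myd88 (12.6), Tlr2 (11.8), Tlr12 (10.2), Tlr11 (8.20), Tlr9 (7.89) and Tlr1 (7.31) came next as means in CPM per kilobase, and from Tlr13 down to Tlr1 the ranges of each gene and the next one overlapped. Tlr6 lay apart below Tlr1, at 1.57 to 3.20 CPM per kilobase. The lowest members were Tlr7, with a mean of 0.35, and Tlr4, with a mean of 0.10 CPM per kilobase, below Tlr3 at 0.40 in a run of overlapping ranges. Tlr5, the flagellin receptor, had at most 8 counts in a library, and Tlr8 had 0 counts in all 6, which allows up to 3 counts in each library, or 0.265 CPM in the shallowest.

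**Figure D1:**
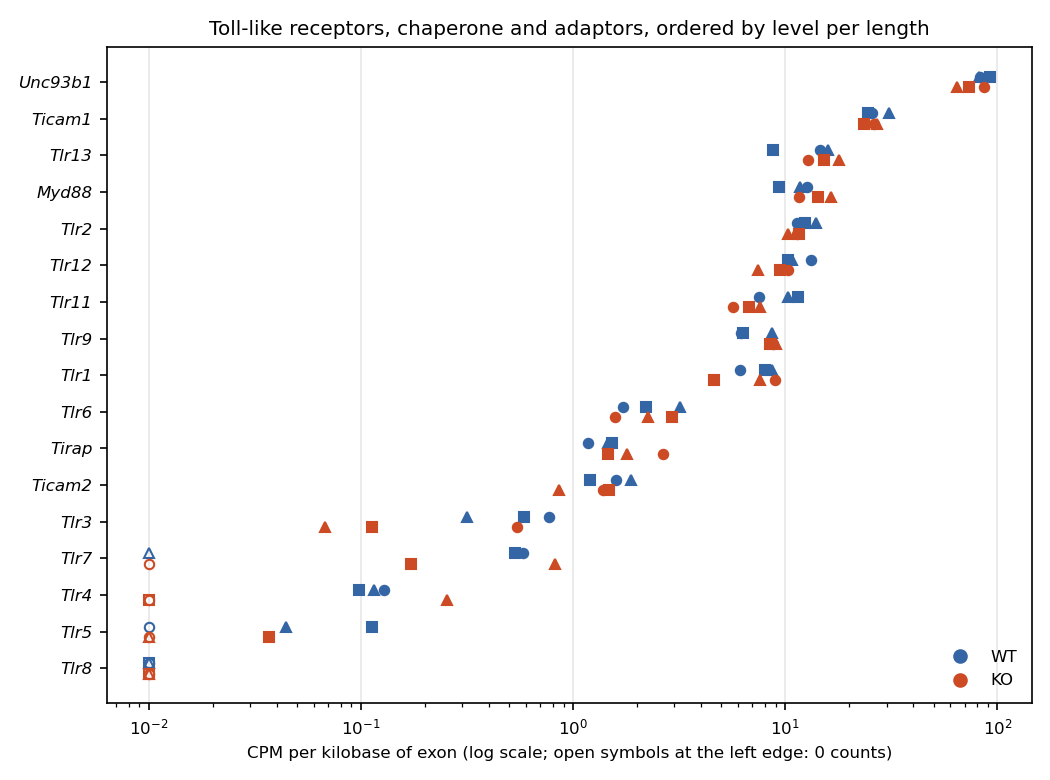
Level of 12 Toll-like receptors, the chaperone and 4 adaptors in CPM per kilobase of exon on a log axis, with 1 symbol per library (circle, square and triangle for replicates 1, 2 and 3), WT in blue and KO in red. Open symbols at the left edge mark libraries with 0 counts. Unc93b1 and Ticam1 lie above all receptors, a band from Tlr13 to Tlr1 overlaps, and Tlr3, Tlr7, Tlr4, Tlr5 and Tlr8 lie lowest.

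No member passed the test of KO against WT. The edgeR quasi-likelihood fit covered 12568 genes, of which 0 (0%) passed an adjusted p of 0.05, and 725 (5.77%) had an unadjusted p under 0.05. DESeq2 gave 10 genes (0.0796%) with an adjusted p under 0.05, none of them a member. All 10 members passed the filter on low counts and were tested, and 1 of them, Tlr11, had an unadjusted p under 0.05. WT and KO values were fully apart for 1338 genes, or 10.6%, and for 0 of the 10 members. The median log2 fold change of the members was -0.15, with 2 above 0 and 8 below, and that of all genes tested was 0.00.

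Of the endosomal receptor genes, Tlr11 was lower and Tlr9 higher in KO, neither past the threshold. Tlr11 (ENSMUSG00000051969, chromosome 14, 50357914 to 50363663), whose product binds profilin of Toxoplasma, read 24.5, 37.5 and 33.6 CPM in WT, against 18.6, 22.0 and 25.0 CPM in KO. The highest KO library lay just above the lowest WT library, so the groups overlapped by 1 library each. WT averaged 31.9 ± 6.65 CPM and KO 21.8 ± 3.17 CPM (SD, n = 3 each), 68.6% of the WT level. The fitted log2 difference was -0.55 ± 0.21 (SE), at an edgeR adjusted p of 0.834 and an unadjusted p of 0.0246. It lay between -0.71 and -0.43 when each library was left out in turn. The unadjusted p was above 0.05 without WT replicate 2 (0.083), WT replicate 3 (0.0707), KO replicate 1 (0.0807) or KO replicate 2 (0.0519).

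Tlr9 (ENSMUSG00000045322, chromosome 9, 106222598 to 106226883), the receptor for unmethylated CpG DNA, was at 21.5, 22.05 and 30.0 CPM in WT and at 30.3, 29.6 and 31.3 CPM in KO. The KO libraries lay close together, and WT replicate 3 lay among them. WT averaged 24.5 ± 4.74 CPM and KO 30.4 ± 0.88 CPM (SD, n = 3 each). The log2 fold change was 0.30 ± 0.19, with an edgeR adjusted p of 0.853 and an unadjusted p of 0.134. It was 0.48 without WT replicate 3 (unadjusted p = 0.0362) and 0.21 without WT replicate 1 (unadjusted p = 0.344). B-cell markers, which come from cells that also express Tlr9, summed to 16.3 to 45.0 CPM in WT and 10.6 to 35.6 CPM in KO. The part of B cells in the Tlr9 values was not tested.

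Tlr7 (ENSMUSG00000044583, chromosome X, 167304929 to 167330558), the receptor for single-stranded RNA, was near the counting limit. It had 43, 32 and 0 counts in WT, against 0, 12 and 38 in KO. That is 2.36, 2.16 and 0 CPM in WT and 0, 0.70 and 3.35 CPM in KO, where 0 counts allow up to 3 counts, or 0.159 CPM in WT replicate 3 and 0.217 CPM in KO replicate 1. Each group thus held libraries with and without the transcript. The log2 fold change of -0.28 ± 1.08 (edgeR adjusted p = 0.98) leaves its direction undetermined, and it was above 0 when WT replicate 1 or 2, or KO replicate 1 or 2, was left out.

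**Figure D2:**
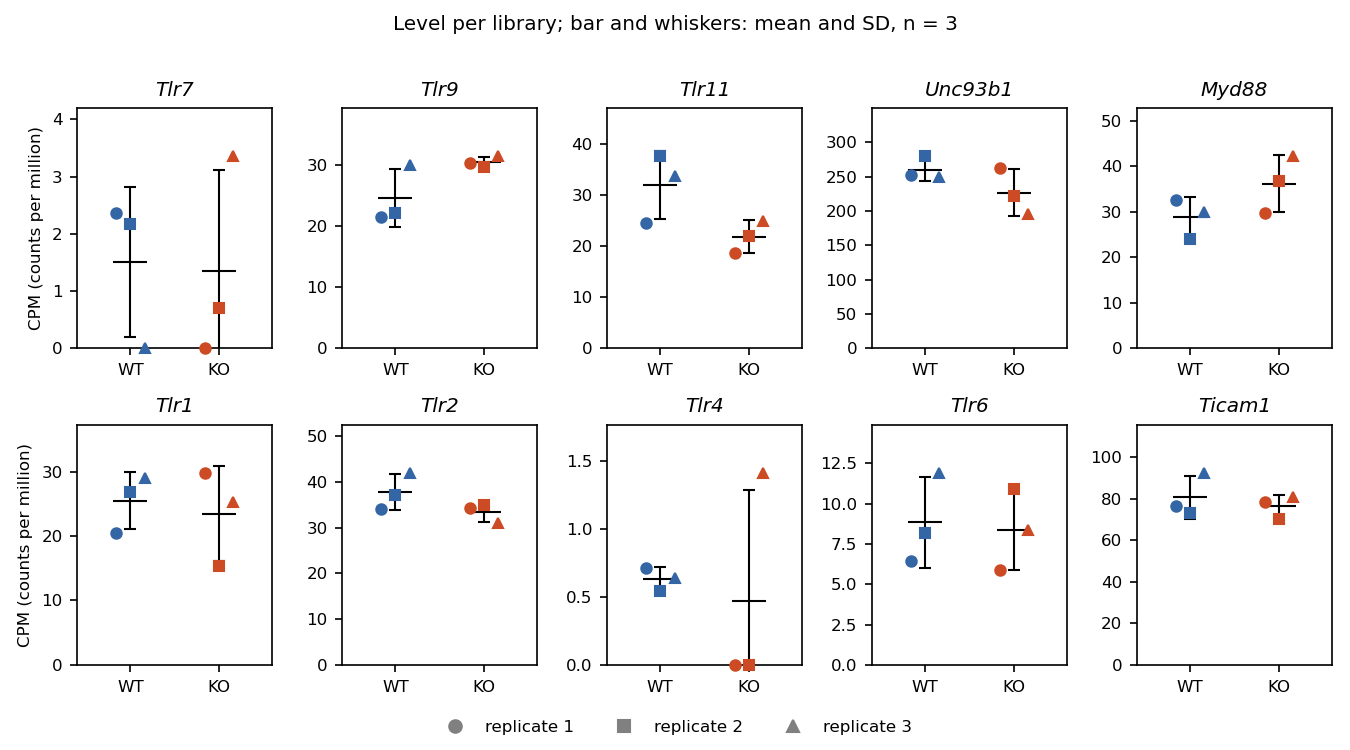
CPM of the 10 members in the 6 libraries, 1 panel per gene with its own axis from 0, replicates 1, 2 and 3 as circle, square and triangle, with the group mean as a bar and the SD as whiskers (n = 3), which are drawn only down to 0. Tlr11 lies between 18.6 and 25.0 CPM in KO against 24.5 to 37.5 CPM in WT, Tlr9 lies at 29.6 to 31.3 CPM in KO, and no panel shows groups that are fully apart.

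Tlr9 and Tlr11 were at like levels but had fold changes of opposite sign, neither past the threshold, so their promoters are shown side by side. Each RefSeq window on GRCm38.p6, the mm10 assembly, runs from 250 bases before to 50 after a gene's start, on the plus strand in both cases. It is chr9:106222348-106222647 for Tlr9 and chr14:50357664-50357963 for Tlr11. Capitals mark matches to motifs of factors at work in dendritic cells.
Tlr9: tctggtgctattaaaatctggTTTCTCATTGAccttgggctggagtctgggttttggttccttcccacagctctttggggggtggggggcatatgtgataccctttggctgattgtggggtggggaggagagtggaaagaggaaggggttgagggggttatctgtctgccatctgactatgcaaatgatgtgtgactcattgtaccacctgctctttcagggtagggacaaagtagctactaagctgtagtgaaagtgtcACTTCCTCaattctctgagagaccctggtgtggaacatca
Tlr11: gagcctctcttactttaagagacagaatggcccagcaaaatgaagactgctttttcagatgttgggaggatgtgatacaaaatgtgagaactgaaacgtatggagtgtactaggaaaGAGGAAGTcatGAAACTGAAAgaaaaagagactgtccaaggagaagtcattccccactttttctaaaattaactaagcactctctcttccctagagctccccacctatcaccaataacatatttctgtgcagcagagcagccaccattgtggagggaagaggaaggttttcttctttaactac
Searched on both strands were a PU.1 motif (GAGGAAGT), an interferon response motif (GAAA, any 2 bases, GAAA), an ETS-IRF composite (GGAA, any 2 bases, GAAA), an AP-1-IRF composite (TTTC, any 4 bases, TGA) and an NF-kB motif (GGGA, any 2 bases, TTCC). The PU.1 motif was found in both windows, at bases 118 to 125 of the Tlr11 window and on the opposite strand at bases 261 to 268 of the Tlr9 window, and 3.2% of 32851 windows hold it. The Tlr11 window also held the interferon response motif at bases 129 to 138, found in 3.44% of windows. The Tlr9 window held the AP-1-IRF composite at bases 22 to 32, found in 4.56% of windows. Neither window held the ETS-IRF composite (2.72% of windows) or the NF-kB motif (1.47%). The motifs did not overlap each other in these windows, and a match is a description of the sequence. Among other members whose windows were searched, Myd88 (log2 fold change 0.31) and Tlr6 (-0.06) also held the interferon response motif. Tlr6 also held the AP-1-IRF composite, and Tlr1 (-0.13) held the PU.1 motif. The windows of Tlr2 and Ticam1, and another window each of Tlr1 and Tlr6, held none of the motifs. Windows of Tlr4, Tlr7 and Unc93b1 were not searched.

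Other endosomal receptor genes were on both sides of 0 too. Tlr12, whose product works with TLR11 on profilin, was at 41.9, 32.6 and 34.3 CPM in WT and 32.7, 29.8 and 23.7 CPM in KO (log2 fold change -0.33 ± 0.19, edgeR adjusted p = 0.836). The groups overlapped through WT replicate 2 and KO replicate 1 by less than 1 CPM. Tlr13 was at 62.5, 37.8 and 68.5 CPM in WT and 54.8, 65.8 and 76.9 CPM in KO (log2 fold change 0.22 ± 0.22). Tlr13, like Tlr5 and Tlr8, was named after its values were seen. Tlr3, the receptor for double-stranded RNA and a cDC1 marker, had few counts, at 4.01, 3.04 and 1.64 CPM in WT and 2.82, 0.58 and 0.35 CPM in KO. Its log2 fold change was -1.19 ± 0.67 (edgeR adjusted p = 0.836), and KO replicate 1 lay within the WT range. It was -2.53 without KO replicate 1 (unadjusted p = 0.00935) and lay between -1.50 and -0.77 without any other single library. Both profilin receptor genes and Tlr3 were therefore below 0 and both Tlr9 and Tlr13 above 0, with none past the threshold. Xcr1, another transcript of cDC1s, was at 13.5, 44.6 and 13.1 CPM in WT and 9.42, 5.72 and 11.4 CPM in KO. Like Tlr11 it was lower in KO on average, but unlike Tlr11 its groups did not overlap (log2 fold change -1.43 ± 0.59, edgeR adjusted p = 0.834). Xcr1 was named after its values were seen. The 12 cDC1 markers summed to 3190 to 3380 CPM in WT and 3030 to 3560 CPM in KO. Irf8, at 1244 to 1741 CPM, gave much of these sums. Of the 12 markers, 9 had a log2 fold change below 0, with a median of -0.29. At an unadjusted edgeR p under 0.05, 3 were lower and 0 higher, where 3.06% of all genes tested were lower. For 2 markers KO lay below WT without overlap, as for 5.19% of all genes tested. The part of cDC1 make-up in the Tlr11 values was not tested.

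Unc93b1 (ENSMUSG00000036908, chromosome 19, 3935186 to 3949340), the chaperone that carries endosomal receptors out of the endoplasmic reticulum, was at 252.2, 279.5 and 249.2 CPM in WT and 263, 221.5 and 195.3 CPM in KO. KO replicate 1 lay within the WT range, and KO replicates 2 and 3 lay below it. The means were 260.3 ± 16.7 and 226.6 ± 34.2 CPM (SD, n = 3 each), a log2 fold change of -0.20 ± 0.14 with an edgeR adjusted p of 0.853. It was -0.32 without KO replicate 1 (unadjusted p = 0.0281) and -0.11 without KO replicate 3. Per kilobase, Unc93b1 was 1.79 to 2.43 times the sum of the 7 endosomal receptor genes in the WT libraries and 1.5 to 2.29 times in the KO libraries.

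None of the surface receptor genes passed the test, and WT and KO values overlapped for each. Tlr2 (ENSMUSG00000027995, chromosome 3, 83836272 to 83841767), the shared partner in lipoprotein recognition, was the highest of them, at 34.1, 37.2 and 41.9 CPM in WT and 34.3, 34.9 and 31.0 CPM in KO. The log2 fold change was -0.17 ± 0.16 (edgeR adjusted p = 0.901). Its partner Tlr1 (ENSMUSG00000044827) was at 20.5, 26.8 and 29.1 CPM in WT and 29.8, 15.4 and 25.3 CPM in KO. The highest and the lowest Tlr1 level both came from KO libraries, and the log2 fold change was -0.13 ± 0.25. Tlr6 (ENSMUSG00000051498), the other partner of TLR2, was at 6.43, 8.18 and 11.9 CPM in WT and 5.87, 10.9 and 8.38 CPM in KO (log2 fold change -0.06 ± 0.33). With the 229 shared bases shown above, the values of Tlr1 and Tlr6 are uncertain by the reads that fit both.

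Tlr4 (ENSMUSG00000039005, chromosome 4, 66827584 to 66930284), the lipopolysaccharide receptor, was barely detected. It had 13, 8 and 12 counts in WT, against 0, 0 and 16 in KO. These are 0.71, 0.54 and 0.64 CPM in WT and 0, 0 and 1.41 CPM in KO, and the highest and the lowest values both belong to KO libraries. Its log2 fold change was -0.73 ± 1.30 (edgeR adjusted p = 0.949). Without KO replicate 3 both remaining KO libraries are at 0, so no fold is given there, and the unadjusted p was 0.0416.

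Levels of Tlr4 and Tlr7 are shown beside markers of other cells. Monocytes and macrophages express Tlr4 and Tlr7, and plasmacytoid dendritic cells (pDCs) express Tlr7. KO replicate 3, with the highest monocyte and macrophage sum, also had the highest Tlr4 (1.41 CPM) and the highest Tlr7 (3.35 CPM). WT replicate 1, second in that sum, was second in both. For neither gene did the order hold throughout. WT replicate 2, with a sum of 223 CPM, had Tlr7 at 2.16 CPM, close to the 2.36 CPM of WT replicate 1. KO replicate 1, with a sum of 231 CPM, had 0 Tlr7 counts. It also had 0 Tlr4 counts, whereas WT replicate 2 had Tlr4 at 0.54 CPM. Of the 15 monocyte and macrophage markers, 12 had counts in every library and 0 were at 0 throughout. The marker sum averaged 321 ± 128 CPM for WT and 417 ± 336 CPM for KO (SD, n = 3 each), and Lyz2, the highest of them, reached 468 CPM in KO replicate 3. Siglech, a defining pDC transcript named after its values were seen, was highest in WT replicate 3, at 12.6 CPM, where Tlr7 had 0 counts. Siglech was lower in KO without overlap (log2 fold change -2.32 ± 0.78, edgeR adjusted p = 0.834), as were 5.19% of all genes tested. Of 10 tested pDC markers 7 lay below 0, with a median log2 fold change of -0.70. At an unadjusted edgeR p under 0.05, 2 were lower and 0 higher, where 3.06% of all genes tested were lower. The summed pDC list, much of it from Spib at 186.1 to 246.9 CPM, lay at 378 to 399 CPM in WT and 391 to 419 CPM in KO. B-cell markers summed to 10.6 CPM in KO replicate 1 and 16.3 CPM in WT replicate 3, the libraries with 0 Tlr7 counts. Elsewhere they summed to 20.2 to 45.0 CPM, and KO replicate 2, at 35.6 CPM, had Tlr7 at only 0.70 CPM. The part of any of these cell types in the Tlr4 and Tlr7 values was not tested.

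**Figure D3:**
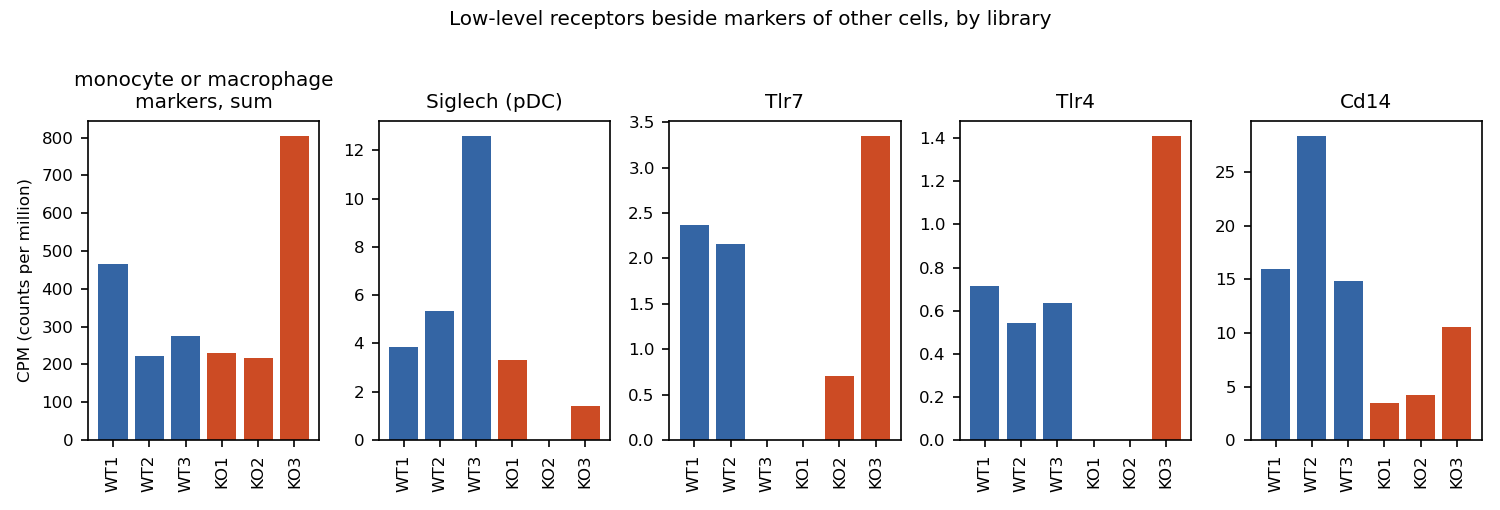
CPM by library for the sum of 15 monocyte or macrophage markers, for Siglech, for the low-level members Tlr7 and Tlr4, and for the co-receptor Cd14, with WT bars in blue and KO bars in red. The marker sum, Tlr7 and Tlr4 are highest in KO replicate 3 (805, 3.35 and 1.41 CPM), whereas Siglech is highest in WT replicate 3 and Cd14 in WT replicate 2.

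Of the adaptors, Myd88 was higher in KO on average and Ticam1 hardly differed. Myd88 (ENSMUSG00000032508, chromosome 9, 119335934 to 119341411) was at 32.6, 23.9 and 30.1 CPM in WT and 29.8, 36.7 and 42.2 CPM in KO. KO replicates 2 and 3 lay above all WT libraries, and KO replicate 1 lay among them. The means were 28.9 ± 4.47 and 36.2 ± 6.21 CPM (SD, n = 3 each), a log2 fold change of 0.31 ± 0.19 with an edgeR adjusted p of 0.853. It was 0.43 without KO replicate 1 (unadjusted p = 0.0481), and 0.20 without WT replicate 2 or without KO replicate 3. Exons of Myd88 share 11.3% of their bases with Acaa1a on the opposite strand, and Acaa1a had a log2 fold change of 0.18 ± 0.13. The sources used here do not give a strand setting for the counting, so reads in that stretch cannot be assigned with certainty.

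Ticam1 (ENSMUSG00000047123, chromosome 17, 56269319 to 56276786), which encodes TRIF, was at 76.6, 73.0 and 92.4 CPM in WT and 78.5, 70.4 and 80.7 CPM in KO. The groups overlapped almost fully, with a log2 fold change of -0.08 ± 0.14 (edgeR adjusted p = 0.949). Within a library, Myd88 was 0.495, 0.381 and 0.378 times Ticam1 per kilobase in WT and 0.44, 0.605 and 0.607 times in KO. The higher ratios came from KO replicates 2 and 3, and KO replicate 1 lay within the WT range.

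As classes, the balance of endosomal to surface receptors overlapped between the genotypes. The sum of Tlr7, Tlr9 and Tlr11 was 0.739, 0.809 and 0.729 times that of Tlr1, Tlr2, Tlr4 and Tlr6 in the WT libraries, per kilobase, and 0.659, 0.805 and 0.858 times in the KO libraries. The WT values lay within the KO range. With the other receptors added, 7 endosomal genes summed to 2.22, 1.67 and 1.77 times 5 surface genes in WT and to 1.74, 2.10 and 2.11 times in KO. Again the groups overlapped. The mean log2 fold change of the endosomal members exceeded that of the surface members by 0.10. Without the sparse Tlr7 and Tlr4 the difference was 0.00, but there Tlr9 (0.30) and Tlr11 (-0.55) partly cancel each other. The difference is imprecise. Per library, the mean log2 CPM of endosomal minus surface members was 0.48, 0.52 and -1.03 in WT and -0.34, 0.63 and 0.47 in KO (pooled SD 0.72). These values are descriptions of a chosen list and carry no test.

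The ratio of Tlr9 to Tlr11 is given as a description only, since the pair was picked after its values were seen, with one gene higher and the other lower in KO, so that a difference in their ratio was built in. Per kilobase, Tlr9 was 0.825, 0.554 and 0.839 times Tlr11 in WT, against 1.53, 1.27 and 1.18 times in KO. Tlr11 was thus the higher of the pair in every WT library and Tlr9 in every KO library. On the log2 scale the ratio was -0.46 ± 0.34 in WT and 0.40 ± 0.19 in KO (SD, n = 3 each). No test is given, and neither gene passed the adjusted threshold. The same ratio for Tlr13 over Tlr12 was 1.10, 0.856 and 1.47 in WT and 1.24, 1.63 and 2.39 in KO, with overlap. That pair too sets a gene with a fold change above 0 over one below 0, so its ratio is likewise a description only.

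**Figure D4:**
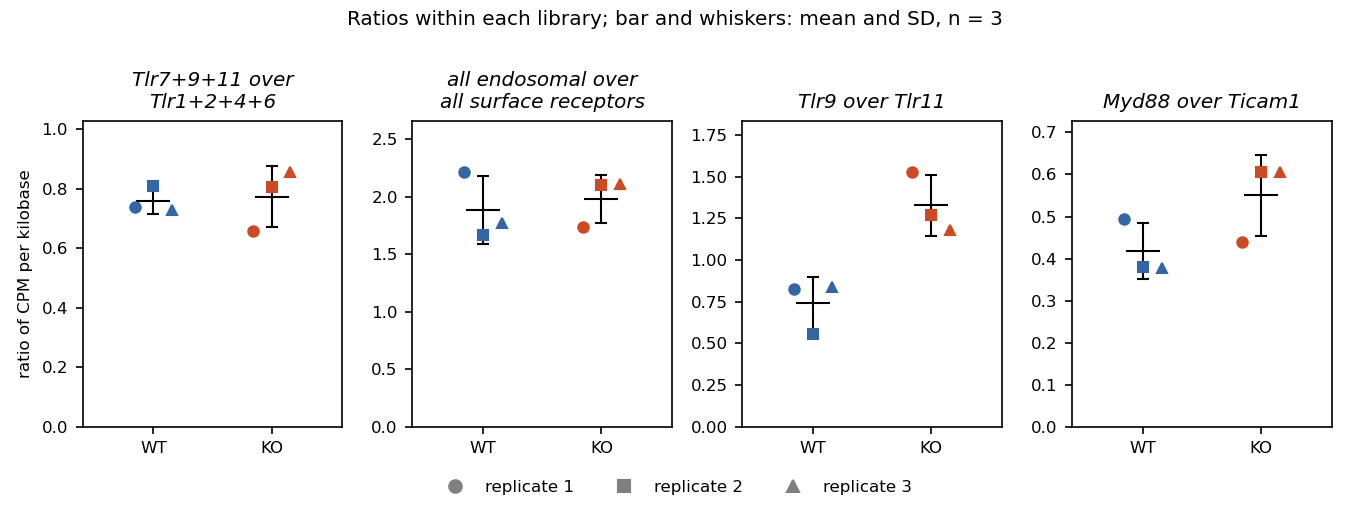
Ratios of levels per kilobase within each library, for endosomal over surface members, all endosomal over all surface receptors, Tlr9 over Tlr11, and Myd88 over Ticam1, with replicates 1, 2 and 3 as circle, square and triangle and the group mean and SD (n = 3) as bar and whiskers. The class ratios overlap between WT and KO, and Tlr9 over Tlr11 lies at 0.554 to 0.839 in WT and at 1.18 to 1.53 in KO.

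Around the members, 130 other genes of the pathway were listed, of which 129 were in the table and 117 were tested. None passed the adjusted threshold. At an unadjusted p under 0.05, 3 were higher (2.71% of all genes tested were) and 5 were lower (3.06% of all genes), so the share of called genes was near the background. The median log2 fold change over the 117 genes was -0.02. Values below are log2 fold changes with SE from the edgeR fit, and adjusted p was 0.834 or higher for each.

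Co-receptors held 3 of the 5 lower genes. Cd14, which hands lipopolysaccharide to TLR4 and also aids endosomal receptors, was at 15.9, 28.4 and 14.9 CPM in WT and 3.48, 4.21 and 10.6 CPM in KO. The groups did not overlap, and the log2 fold change was -1.75 ± 0.41. Cd14 is also a monocyte marker, and the part of monocytes in its values was not tested. Cd180, a TLR4-like receptor without a TIR domain, was at 10.4, 21.1 and 20.7 CPM in WT and 11.9, 5.84 and 11.3 CPM in KO (-0.88 ± 0.34), with overlap through WT replicate 1. Its unadjusted edgeR p was above 0.05 without WT replicate 2 (0.0779), WT replicate 3 (0.0974) or KO replicate 2 (0.129). Cd36, a scavenger receptor that aids TLR2 with TLR6, was at -0.47 ± 0.19, and was named after its values were seen. Of 5 tested co-receptor genes, 3 lay below 0.

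The folding, traffic and cleavage list held all 3 of the higher genes. Of its 32 tested genes, 22 lay above 0, with a median of 0.14. Stx4a, a plasma-membrane SNARE, was at 122.8, 119 and 116.7 CPM in WT and 149.4, 144.3 and 157.6 CPM in KO (0.33 ± 0.12), with no overlap. Leaving out WT replicate 3 gave an unadjusted edgeR p of 0.055, and leaving out KO replicate 3 gave 0.0601. The other higher genes, named after their values were seen, were Ap3m1, a subunit of the AP-3 adaptor that sorts TLR9 (0.37 ± 0.14), and Lgmn, an asparagine endopeptidase that cleaves endosomal receptors (0.29 ± 0.13). Ap3m1 shares 29.8% of its exon bases with Vcl on the opposite strand. Pld4, an endolysosomal exonuclease that removes TLR9 ligands, was lower, at 88.1, 94.3 and 79.8 CPM in WT and 68.7, 54.7 and 64.7 CPM in KO (-0.48 ± 0.14), with no overlap. In this list 6 genes without overlap were higher and 3 lower, where 5.46% and 5.19% of all genes tested were.

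The medians of the downstream lists lay close to 0. Of 23 tested kinases and ubiquitin ligases none had an unadjusted p under 0.05, 17 lay below 0 and the median was -0.07. The smallest p-values were those of Pik3cd, a leukocyte lipid kinase subunit (-0.43 ± 0.22), and Ube2n, the ubiquitin-conjugating enzyme that works with TRAF6 (0.29 ± 0.16). The 11 transcription factors had a median of -0.07, with Fos at -0.49 ± 0.27 and Atf3 at -0.31 ± 0.23. The unadjusted p of Fos was 0.11 in the edgeR fit, 0.0385 with DESeq2 and 0.0484 with limma-voom. With a library left out of the edgeR fit it went from 0.00134 (KO replicate 1) to 0.309 (WT replicate 2). Of 19 negative regulators, 1 was lower at an unadjusted p under 0.05, Cd300a, an inhibitory receptor (-1.86 ± 0.75), which had 0 counts in KO replicate 1. Its unadjusted p was above 0.05 with DESeq2 (0.0575), limma-voom (0.0896), quality weights (0.118) and legacy dispersions (0.0964). In the edgeR fit it was also above 0.05 without WT replicate 1 (0.17), KO replicate 1 (0.105) or KO replicate 2 (0.0515), and the log2 fold change was -1.20 without WT replicate 1. Nlrc5, an NLR family member, was at -0.23 ± 0.14. The 17 early target genes had a median of -0.07, with Il1b, which encodes interleukin-1 beta (-0.32 ± 0.17), and Marcksl1 (0.20 ± 0.12) at the smallest p. Without overlap, Nlrc5 and Il1b were lower in KO, as were 5.19% of all genes tested, and Marcksl1 was higher, as were 5.46%.

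The remaining adaptors and the IL-1 family receptors that share MyD88 gave no call. Tirap, which bridges TLR2 and TLR4 to MyD88, was at 5.77, 7.51 and 7.20 CPM in WT and 13.04, 7.18 and 8.82 CPM in KO (0.50 ± 0.31). Ticam2, which bridges TLR4 to TRIF, was at 9.18, 6.97 and 10.8 CPM in WT and 7.97, 8.53 and 4.94 CPM in KO (-0.31 ± 0.30), and shares 14.5% of its exon bases with Tmed7 on the same strand. Among 4 tested IL-1 family receptors, Il1rap, the shared accessory chain, was at -0.82 ± 0.42 and Il18r1, one chain of the interleukin-18 receptor, at 0.70 ± 0.91.

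**Figure D5:**
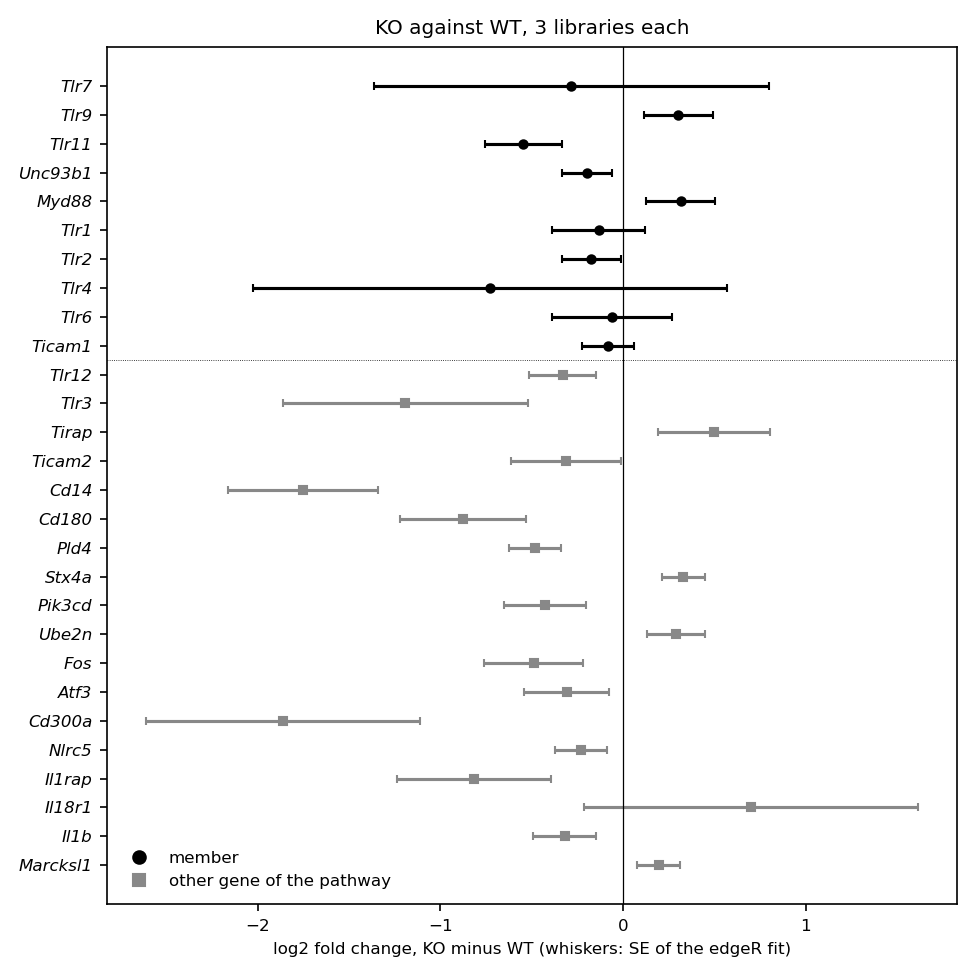
Log2 fold change of KO minus WT with the SE of the edgeR fit (3 libraries per group) for the 10 members (black circles) and for the 2 genes of smallest p in each list of the pathway (grey squares). Tlr9 and Myd88 lie above 0 and Tlr11 below, the whiskers of Tlr7 and Tlr4 span 0 widely, and Cd14 (-1.75) and Cd300a (-1.86) lie farthest to the left.

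For each member, the gene whose log2 CPM followed it most closely over the 6 libraries was sought among those with a mean of 5 CPM or more. These were N4bp1 for Tlr9 (Pearson r = 0.986), Fam98c for Tlr11 (0.99), Ets1 for Tlr7 (0.987), Zfp579 for Tlr1 (0.993), Batf2 for Tlr2 (0.992), Unk for Tlr4 (0.995) and Sap30l for Tlr6 (0.974). For the chaperone and the adaptors they were Atxn1 for Unc93b1 (0.991), Vwa5a for Myd88 (0.996) and Epb41 for Ticam1 (0.975). Over so few libraries, which share depth and scaling, the tenth-ranked gene still had an r of 0.941 to 0.985, so the first place says little about a gene.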

How the data were processed

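Per the labels' protocols, cDC1s were sorted by flow cytometry, their RNA extracted with Trizol, and paired reads of 150 bases obtained. The authors deposited raw counts per Ensembl gene for 6 libraries, not normalized. The submitters' processing notes name mm10, HISAT2 2.0.5 and HTSeq. They give no annotation, strand setting or treatment of reads that match several genes. Columns were matched to samples by the library name in each description. GENCODE M21 named 32235 of 32285 features (99.8%), and the highest-count feature was used for a repeated symbol.

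Genes were kept by filterByExpr (12568 genes) and TMM-scaled. Quasi-likelihood tests (robust glmQLFit with legacy = FALSE) were run in edgeR 4.0.16 under R 4.3.3, with Benjamini-Hochberg adjustment at 0.05. The SE is the log2 fold change over the square root of F. CPM per kilobase used the union of exons. Depth was 11755944 to 18450678 counts per library, and limits of 3 counts cover counting error only.

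Members and lists were chosen with earlier results of these data known. Named genes were the members, Vps33b, the 2 genes of smallest p in each pathway list, the closest gene to each member over the libraries, and the highest marker of each cell type. One listed pathway gene was not analysed here. One overlap between exons of neighbouring genes is not reported here. The highest remaining markers were Fscn1 of mature dendritic cells (4870 to 7490 CPM), Irf4 of cDC2s (78.8 to 181 CPM), Lck of T cells (10.3 to 19.6 CPM), Ms4a1 of B cells (3.77 to 10.7 CPM), Csf3r of neutrophils (0 to 2.91 CPM) and Eomes of NK cells (0 to 1.69 CPM). The 8 mature dendritic cell markers summed to 14800 to 16200 CPM in WT and 15800 to 21100 CPM in KO. Of these 7 lay above 0. At an unadjusted edgeR p under 0.05, 2 were higher, where 2.71% of all genes tested were. The part of maturation in the values of the members was not tested.

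The alternatives covered upper-quartile and RLE scaling, no filter, 1 CPM in 3 libraries, DESeq2 1.42.0, limma-voom (limma 3.58.1) with and without quality weights, no robust estimation, the replicate block, and each library left out. The legacy quasi-dispersions and 2 other sets of receptors were added after the data were examined.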

Additional observations from a re-analysis of the deposited data

How the results depend on the processing

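None of the 10 members passed the adjusted threshold under any alternative run. The count of all genes past it was 0 in the main test, 3 without a filter and 10 with DESeq2, and 0 to 7 when a library was left out. At an unadjusted p under 0.05 the main test had 725 genes, 1210 came with quality weights, and 376 to 1621 came with a library left out, the extremes being without KO replicate 2 and without KO replicate 1, with 444 without KO replicate 3. Of the members 1 was under that p in the main test, 0 with quality weights and 0 to 2 with a library left out. Without KO replicate 1 these were Unc93b1 and Myd88 in place of Tlr11, and without WT replicate 3 it was Tlr9 in place of Tlr11. The endosomal minus surface difference of 0.10 was 0.62 with limma-voom, 0.85 with quality weights, -0.05 with the filter of 1 CPM, which removes Tlr4, and -0.16 to 0.95 with a library left out, with the highest value without KO replicate 3, where Tlr4 is at 0 in KO. Tlr9, Tlr11, Tlr2, Tlr4, Unc93b1 and Myd88 kept their sign in all alternatives that gave a value. For Tlr4 the size was not stable. It went from -0.73 to -2.52 with limma-voom and -2.33 with quality weights. Without KO replicate 1 it was -0.17 and without KO replicate 2 it was -0.01, so the direction for Tlr4 is undetermined.

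The sign turned with quality weights for Tlr7 (0.67) and Tlr6 (0.05), and for Il18r1 with limma-voom (-0.41) and with quality weights (-0.83). With a library left out the range was -1.89 to 0.31 for Tlr7, -0.35 to 0.23 for Tlr6, -0.36 to 0.11 for Tlr1, -0.15 to 0.03 for Ticam1 and -0.59 to 1.15 for Il18r1. The cause was not tested. Same-numbered libraries did not deviate together over all genes tested (correlations of 0.01, 0.03 and 0.00). A shared factor that acts on some genes only could go unseen there, and the labels do not say whether the numbers pair libraries. With the replicate block 0 genes passed, 942 had an unadjusted p under 0.05, and Tlr11 was at -0.54, Tlr9 at 0.32 and Vps33b at -1.30. With the longest transcript in place of the exon union, 4 of 17 genes changed rank. Depth limits Tlr7, Tlr4 and Tlr3, whose values rest on few counts.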
